A study of Mus musculus with 8 samples.

Results

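The transcripts of 9 transcription factors of the macrophage lineage were followed: Spi1, Cebpa, Cebpb, Cebpd, Maf, Runx1, Zeb2, Mitf and Bhlhe40. They were taken by gene symbol, as 9 of the 55414 genes in the deposited count table. Bulk RNA sequencing had been done on macrophages from the wound bed of mouse skin at day 1 after injury (3 libraries, a to c) and at day 3 (5 libraries, a to e). The sources state 6 samples per time point, more than the count table holds. F4/80, a surface protein of macrophages encoded by Adgre1, served to pull the cells out on magnetic beads, and each library held RNA of 6 wounds pooled from 3 mice. Both days therefore share the wound and the bead selection, no unwounded or treated group was compared here, and the labels give no strain, genotype, age or sex of the mice. They do not say whether pools shared mice, so a p here sets the difference against the spread among pools.

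Macrophage identity is set by a small group of DNA-binding proteins. PU.1, encoded by Spi1, opens myeloid enhancers, and the C/EBP, RUNX and MAF proteins bind beside it, while factors such as ZEB2, MITF and BHLHE40 shape tissue identity, lysosomal and osteoclast-like programs and proliferation. The question set by the design is whether their transcripts differed between wound macrophages of day 1 and of day 3.

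Total counts were between 41566151 and 60289310 per library. Genes with at least 1 count numbered 23928 to 27315 in the day 1 libraries, 20557 in day 3 a and 14952 to 15359 in the other day 3 libraries. The summed level of 12 macrophage markers, Adgre1 and Csf1r among them and none at 0, was 17985 to 20685 CPM at day 1 and 29479 to 36529 at day 3 (CPM stands for normalised CPM, the count relative to the library total, scaled with edgeR). Lyz2 alone made up most of that difference, at 6717 to 9897 CPM at day 1 and 15661 to 23432 at day 3, and the sums of the other 11 markers, 10787 to 12066 and 11389 to 13818 CPM, overlapped. The 14 neutrophil markers summed to 1935, 4003 and 6143 CPM at day 1. At day 3 they summed to 5693 CPM in library b and to 948 to 1311 CPM in the other 4. Day 1 c stood apart by base composition. In the 128 genes of at least 10 CPM whose transcripts hold 60% or more G and C, its median log2 level was 0.74 above the gene's own median over the 8 libraries, and in the 426 genes under 40% it was 0.41 below. In each of the other 7 libraries the same medians lay between -0.12 and 0.10 in every one of 6 GC bins. The members were therefore also compared without day 1 c.

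The members differ widely in base composition, the property by which day 1 c stood apart. The GC content of the longest coding transcript (GENCODE M21, GRCm38) was 67.2% for Cebpb, 62.6% for Cebpa, 58.9% for Spi1, 51.6% for Cebpd, 49.4% for Bhlhe40, 47.4% for Maf, 46.4% for Runx1, 43.4% for Mitf and 40.6% for Zeb2. Among 6661 genes of at least 10 CPM, whose median was 48.5%, Cebpb had the second highest GC content. In the files' build, GRCm39, Spi1 lies on chromosome 2 from 90912735 to 90946101 (plus strand) and Zeb2 on chromosome 2 from 44873644 to 45007407 (minus strand), both with many exons. Cebpa (chromosome 7, 34818718 to 34821353, plus strand) and Cebpb (chromosome 2, 167530835 to 167532338, plus strand) are each annotated as 1 exon, as is Cebpd (chromosome 16, 15705150 to 15708895, plus strand). Shown are 120 bases from the centre of the coding sequence of Spi1, Cebpa and Cebpb, the 3 most GC-rich by transcript, and of Zeb2. They run 5′ to 3′ on the coding strand, with every G and C in capitals. By coding sequence alone the order differs, with Cebpd at 70.1%, Maf at 68.9% and Runx1 at 63.4% above Spi1 at 58.4%. The windows of Maf and Cebpd, not shown, hold 80.8% and 75.8%. The Spi1 window (chr2:91114261-91114380, plus strand) holds 59.2% G and C, the Cebpa window (chr7:35119899-35120018, plus strand) 79.2%, the Cebpb window (chr2:167689407-167689526, plus strand) 75.8% and the Zeb2 window (chr2:44997028-44997147, minus strand) 47.5%, all in GRCm38.
Spi1: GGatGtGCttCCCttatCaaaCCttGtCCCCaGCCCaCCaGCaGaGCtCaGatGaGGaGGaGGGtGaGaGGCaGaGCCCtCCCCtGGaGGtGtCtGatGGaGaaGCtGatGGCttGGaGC
Cebpa: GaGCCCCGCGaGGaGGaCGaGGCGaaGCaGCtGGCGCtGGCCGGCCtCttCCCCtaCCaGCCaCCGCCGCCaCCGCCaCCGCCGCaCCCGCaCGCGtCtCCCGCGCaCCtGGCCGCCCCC
Cebpb: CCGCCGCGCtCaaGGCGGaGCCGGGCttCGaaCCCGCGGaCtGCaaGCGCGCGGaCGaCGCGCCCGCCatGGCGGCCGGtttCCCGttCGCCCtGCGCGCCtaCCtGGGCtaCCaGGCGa
Zeb2: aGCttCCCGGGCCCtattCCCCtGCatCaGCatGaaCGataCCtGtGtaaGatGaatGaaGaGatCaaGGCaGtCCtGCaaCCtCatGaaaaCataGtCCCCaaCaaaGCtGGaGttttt

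No member passed the test between the days (edgeR quasi-likelihood test, Benjamini-Hochberg adjusted p under 0.05), and neither did any with DESeq2, which gave Cebpb no p, or with limma voom, when all 8 libraries were used. Over all 15371 genes tested, 0.013% passed with edgeR, 6.77% with DESeq2 and 5.37% with limma voom. Cebpb and Cebpa had an unadjusted edgeR p under 0.05, which makes 2 of 9 members against 15.7% of all genes tested. All 9 members passed the filter on low counts. Their log2 fold changes, day 3 minus day 1, were above 0 in 5 and below 0 in 4, with a median of 0.02 against -0.17 over all genes tested. The ranges of the 2 days overlapped in every member, whereas they were apart in 14.1% of all genes. In bulk RNA, fewer cells with a transcript and less of it per cell cannot be told apart.

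**Figure D1:**
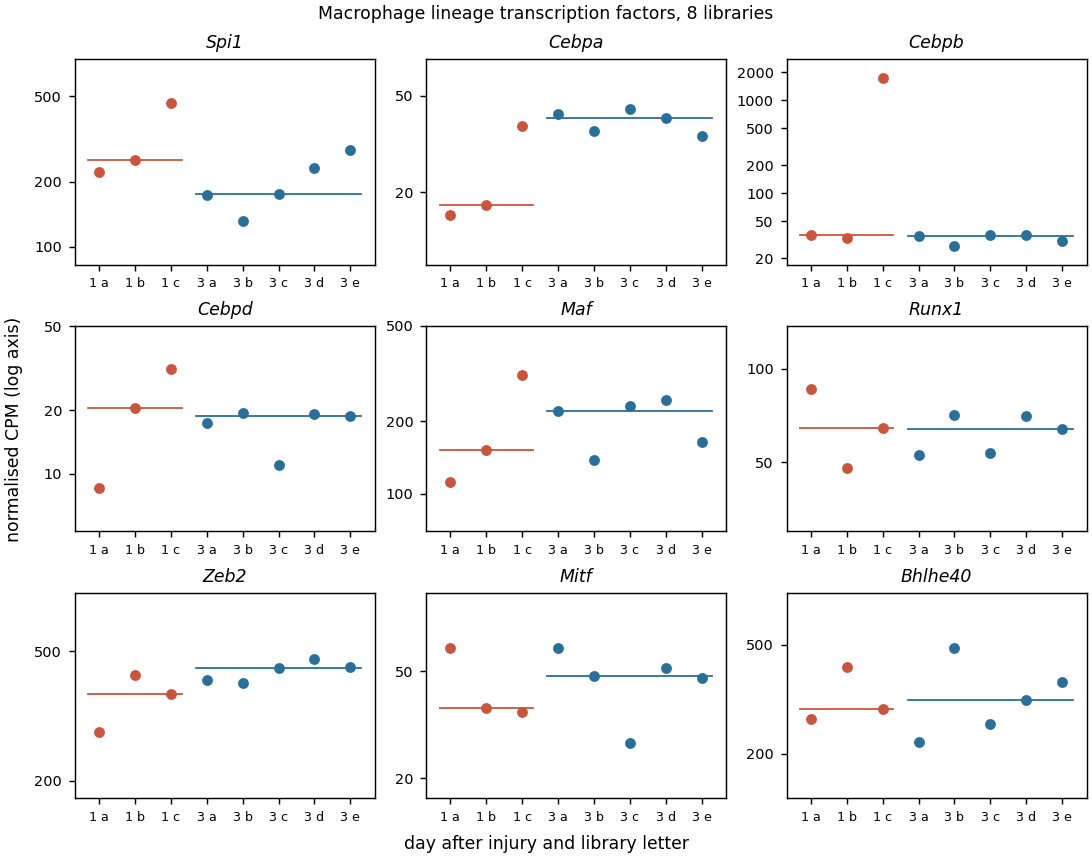
Normalised CPM (log axis) of the 9 members in each library, 3 of day 1 (red) and 5 of day 3 (blue), with a line at the median of each day. The ranges of the days overlap in every panel, and the Cebpb point of day 1 c at 1739.8 CPM stands above 7 points between 27.3 and 35.7.

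Spi1 encodes PU.1, the ETS-family factor without which macrophages do not form, and with Bhlhe40 it was 1 of the 2 members with the highest level per exon length at day 3. Spi1 was at 222, 253 and 464 CPM in the day 1 libraries a, b and c. In day 3 a to e it was at 173, 132, 176, 233 and 281 CPM. Day 1 c was the highest of the 8 libraries and day 3 b the lowest, and day 3 d and e lay within the day 1 range. The mean was 313 ± 132 CPM at day 1 and 199 ± 58.0 at day 3 (SD, n = 3 and 5). The log2 fold change, -0.65 ± 0.30 (SE), missed the threshold (edgeR, adjusted p = 0.333). Without day 1 c it was -0.26 ± 0.27 (edgeR, adjusted p = 0.693). With an offset for GC content fitted in each library it was also -0.26, and the Spi1 levels after that offset, 245 to 274 CPM at day 1 and 145 to 271 at day 3, overlapped.

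The C/EBP proteins are basic leucine zipper factors that work with PU.1 at myeloid enhancers. C/EBPα directs the choice between granulocyte and monocyte fates, C/EBPβ is induced by inflammatory signals and needed for repair-associated genes such as Arg1, and C/EBPδ is an acute-phase partner of both.

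Cebpa was at 16.1, 17.7 and 37.3 CPM in the day 1 libraries a, b and c. It was at 42.1, 35.7, 44.2, 40.2 and 34.0 CPM in day 3 a to e. The 5 day 3 libraries were close together, and day 1 c lay among them while day 1 a and b lay below all 5. The mean was 23.7 ± 11.8 CPM at day 1 and 39.3 ± 4.27 at day 3 (SD, n = 3 and 5). The log2 fold change, 0.73 ± 0.31, missed the threshold (edgeR, adjusted p = 0.298).

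The Cebpa difference was larger without day 1 c, at 1.21 ± 0.24, and again missed the threshold (edgeR, adjusted p = 0.117). In that fit 0.00589% of all genes passed, 16.5% had an unadjusted p under 0.05, and in 8.61% all 5 day 3 libraries lay above day 1 a and b. DESeq2 without day 1 c, a fit added after the other results had been seen, called Cebpa higher at day 3 (log2 fold change 1.21, adjusted p = 0.000161), as the only member among the 7.01% of all genes it called. With the GC offset and all 8 libraries it was 1.22 ± 0.25 (edgeR, adjusted p = 0.0784). Cebpa after the offset was at 20.5, 17.9 and 18.0 CPM at day 1 and from 32.9 to 54.5 at day 3, so the ranges no longer overlapped. The offset had lowered day 1 c from 37.3 CPM and raised day 1 a from 16.1 CPM. With the same offset 15.3% of all genes had an unadjusted p under 0.05, and 5.46% had day 3 apart and higher.

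Cebpb was at 35.6, 32.9 and 1739.8 CPM in the day 1 libraries a, b and c. It was at 34.4, 27.3, 35.5, 35.7 and 31.0 CPM in day 3 a to e. In 7 of the 8 libraries the levels lay within a 1.31-fold range, with no gap between the days, and day 1 c alone was 48.7 times the next highest. The raw counts were 95573 in day 1 c and 1342 to 2078 in the others. The log2 fold change over all 8 libraries was -4.20 ± 1.09 (edgeR, adjusted p = 0.0881). Without day 1 c it was -0.06 ± 0.22 (edgeR, adjusted p = 0.929), so the difference between the days rested on that 1 library. DESeq2 gave -4.18 and no p value for Cebpb, as it does where Cook's distance marks 1 library's count as an outlier, and limma voom gave -2.01 (adjusted p = 0.399).

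The Cebpb level in day 1 c was extreme even for that library. Of the 6661 genes of at least 10 CPM, 44 were more than 5 times their next highest library in day 1 c, against at most 1 in any other library, and Cebpb came first. The gene after it reached 17.3 times its next highest library. The median GC content of the 44 was 58.1%. In the 128 GC-rich genes the median ratio of day 1 c to the median of the other 7 libraries was 1.76, whereas it was 50.5 for Cebpb. With the GC offset the log2 fold change of Cebpb was -2.78 ± 0.77 (edgeR, adjusted p = 0.102). Cebpb in day 1 c was then still at 654 CPM, with 28.6 to 58.6 in the other 7 libraries. The part of base composition in the remainder was not tested. The 58.6 was day 1 a, at 35.6 CPM before the offset. In that library the 128 GC-rich genes had a median log2 level of -0.02 against their own medians. The offset is therefore uncertain at the GC content of Cebpb. Tmem189, on the opposite strand, shares 312 of the 1504 exon bases of Cebpb, and it was at 162 CPM in day 1 c and 31.7 to 51.9 in the other libraries.

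**Figure D2:**
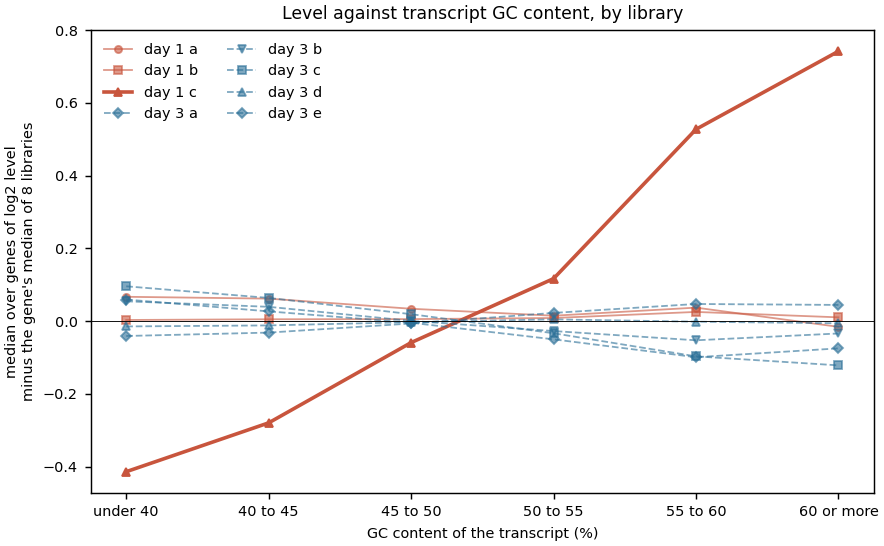
Median over genes of the log2 level minus the gene's own median of 8 libraries (vertical axis), by GC content of the transcript in 6 bins (horizontal axis, percent), 1 line per library. Day 1 c climbs from -0.41 under 40% to 0.74 at 60% or more, and the other 7 libraries stay between -0.12 and 0.10.

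Cebpd was at 8.56, 20.6 and 31.4 CPM in the day 1 libraries a, b and c. It was at 17.5, 19.5, 11.0, 19.1 and 18.7 CPM in day 3 a to e. The day 1 libraries enclosed every day 3 value, and day 3 c was low against the other 4. The log2 fold change was -0.23 ± 0.42 (edgeR, adjusted p = 0.858), and 0.23 ± 0.45 without day 1 c. Spidr, which encodes a scaffold protein of DNA repair and lies on the opposite strand, shares 562 of the 3746 exon bases of Cebpd. Its level was 14.6 to 36.5 CPM, above that of Cebpd in 5 of the 8 libraries, and the recorded counting command has no strand option, so reads in the shared bases cannot be assigned to either gene.

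Maf encodes c-Maf, a large MAF factor that limits macrophage self-renewal and drives Il10 and complement C1q genes. Maf was at 112, 152 and 313 CPM in the day 1 libraries a, b and c. It was at 222, 139, 233, 245 and 164 CPM in day 3 a to e. Day 1 c was the highest of all and day 1 a the lowest, and the day 3 values lay between them. The log2 fold change was 0.06 ± 0.33 (edgeR, adjusted p = 0.956), and 0.61 ± 0.27 without day 1 c (edgeR, adjusted p = 0.316). After the GC offset Maf was still highest in day 1 c, at 320 CPM, with 116 and 149 in day 1 a and b and 136 to 245 at day 3.

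Runx1, a partner of PU.1 needed when blood stem cells arise, and Zeb2, a zinc-finger repressor that maintains the identity of tissue macrophages, had the narrowest ranges of the 9 over the 8 libraries, 1.79-fold and 1.67-fold. Runx1 was at 85.9, 48.0 and 64.4 CPM in the day 1 libraries a, b and c and at 53.0, 71.1, 53.7, 70.6 and 64.2 in day 3 a to e. Every day 3 library lay inside the day 1 range, and the log2 fold change came to -0.08 ± 0.22 (edgeR, adjusted p = 0.914). Zeb2 was at 283, 424 and 370 CPM in the day 1 libraries a, b and c and at 408, 401, 446, 474 and 449 in day 3 a to e. Its coefficient of variation over the day 3 libraries, 6.97%, was the smallest of the 9 members. Day 1 a and c lay below all day 3 libraries and day 1 b among them, and the log2 fold change was 0.28 ± 0.17 (edgeR, adjusted p = 0.473). With the GC offset it was 0.09, and the Zeb2 levels after that offset, 297 to 465 CPM at day 1 and 371 to 468 at day 3, overlapped further, with day 1 c at 465. Zeb2os, the antisense RNA that shares 653 of the 20203 exon bases of Zeb2, was at 3.01 to 8.87 CPM.

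Mitf encodes a basic helix-loop-helix zipper factor of the MiT family, which drives osteoclast, lysosomal, mast cell and melanocyte genes. Mitf was at 60.8, 36.6 and 35.4 CPM in the day 1 libraries a, b and c and at 61.2, 48.1, 27.0, 51.6 and 47.1 in day 3 a to e. The highest and the lowest library were both of day 3, and the log2 fold change was 0.09 ± 0.30 (edgeR, adjusted p = 0.928). Markers of the 2 other cell types of skin in which MITF is a defining factor were low. The 7 mast cell markers summed to 4.80 to 11.2 CPM at day 1 and 0.152 to 3.96 at day 3, with Mcpt4 and Tpsb2 at or under 3 counts in every library. The 6 melanocyte markers summed to 0.200 to 3.90 CPM at day 1 and to at most 0.413 at day 3, with Tyrp1 at or under 3 counts throughout.

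Bhlhe40 encodes a helix-loop-helix repressor that binds E-boxes, restrains Il10 and supports macrophage proliferation. Bhlhe40 was at 267, 414 and 291 CPM in the day 1 libraries a, b and c and at 220, 484, 257, 313 and 364 in day 3 a to e. Day 3 held both the lowest and the highest library, and the log2 fold change of 0.02 ± 0.27 was the smallest of the 9 (edgeR, adjusted p = 0.987). The highest library, day 3 b, had the lowest Spi1 and Maf levels of day 3.

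**Figure D3:**
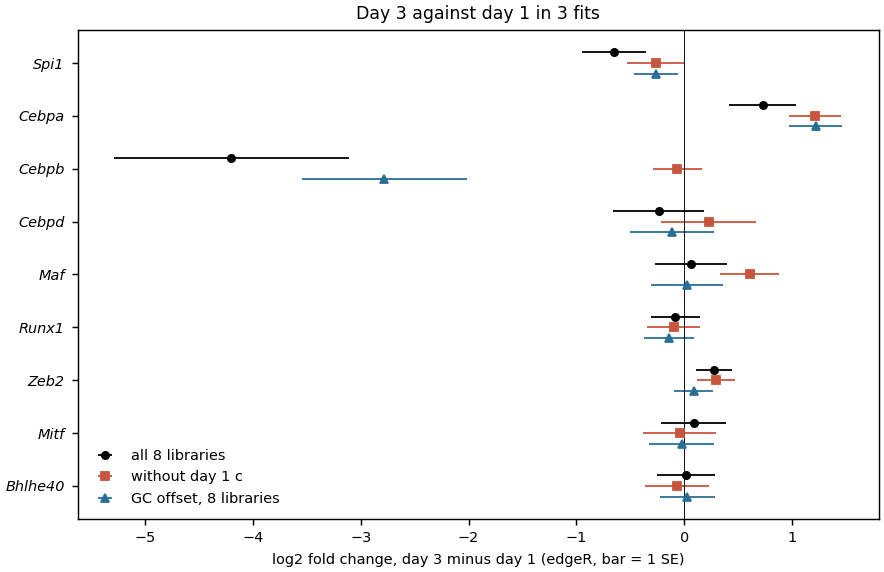
Log2 fold change of each member, day 3 minus day 1, with 1 SE either side, from edgeR with all 8 libraries (black circles), without day 1 c (red squares) and with the GC offset (blue triangles). Cebpb moves from -4.20 to -0.06 without day 1 c, and Cebpa from 0.73 to 1.21.

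Compared per kilobase of annotated exon, the members fell into tiers at day 3. Spi1 stood at 73.9 ± 21.5 CPM per kilobase (SD, n = 5) and Bhlhe40 at 69.6 ± 22.0, and these neighbours overlapped. Maf at 24.3 ± 5.64, Cebpb at 21.8 ± 2.41 and Zeb2 at 21.6 ± 1.50 overlapped one another and lay below every Bhlhe40 value. Cebpa followed at 14.9 ± 1.62, below every Zeb2 value and above every value of Mitf at 7.59 ± 2.01. Runx1 at 5.20 ± 0.733 and Cebpd at 4.58 ± 0.944 closed the order, each overlapping the member above it. The order depends on the length used, since exons of all isoforms were merged. Per kilobase of the longest coding transcript Zeb2 stood at 47.7 ± 3.33 and Maf at 31.5 ± 7.30, with Bhlhe40 at 105 ± 33.2 and Spi1 at 97.9 ± 28.5 still at the top. By that length the mean of Runx1, 10.7 ± 1.50, was above that of Mitf, 9.63 ± 2.56.

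**Figure D4:**
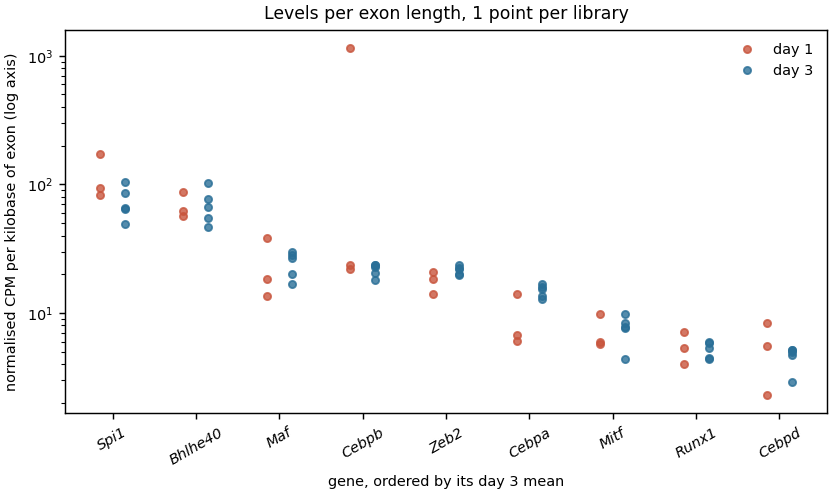
Normalised CPM per kilobase of exon (log axis) of each member in every library, day 1 in red and day 3 in blue, ordered by the day 3 mean. Spi1 and Bhlhe40 lie above the other members at day 3, and the single high Cebpb point is day 1 c.

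The members did not follow each other as a group over the 8 libraries. Over the pairs of members, Pearson's r of log2 CPM ran from -0.57 for Runx1 and Zeb2 to 0.78 for Spi1 and Cebpb, the latter with day 1 c the highest point of both genes, and 0.73 for Cebpa and Maf. These values describe 8 libraries that share depth and composition, and carry no p. Among 6489 named genes of at least 10 CPM, those most like Spi1 over the 8 libraries were Csk (r = 0.987), the kinase that holds Src kinases inactive, and Cnpy3 (0.981), a chaperone of Toll-like receptors. The genes most like Cebpa were Lcmt1 (0.965) and Ssh2 (0.953), and those most like Cebpb were Pitpna (0.995) and Metrnl (0.990). The 2 values for Cebpb rest on day 1 c, since Cebpb lay within a 1.31-fold range in the other libraries. Mcoln1 (0.967) and Mdm1 (0.963) were most like Cebpd, Eid1 (0.942) and C5ar2 (0.933) most like Maf, and Atxn2 (0.971) and Acsl1 (0.945) most like Runx1. For Zeb2 they were Gcnt1 (0.988) and Tomm5 (0.976), for Mitf Prkra (0.953) and Syncrip (0.951), and for Bhlhe40 Dedd2 (0.952) and Pdlim7 (0.902). Pitpna had a GC content of 48.5%, at the median of all genes, and ran from 64.5 to 1005.6 CPM. Metrnl had a GC content of 58.1%, with 32.6 to 639 CPM. The GC content was 60.1% for Csk, 57.7% for Cnpy3, 62.0% for Dedd2 and 61.4% for Pdlim7. The remaining genes named lay between 37.0% (Syncrip) and 56.0% (Mcoln1).

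Paralogues and dimer partners of the members were read from the same fit. Of 19 listed, 17 were tested and none passed with edgeR. With unadjusted edgeR p under 0.05 there were 4, Bhlhe41 above 0 and Cebpe, Maff and Mafg below, against 15.7% of all genes tested. DESeq2 called 3 of these, Bhlhe41 higher and Cebpe and Mafg lower at day 3, against 6.77% of all genes. With limma voom none was called. Without day 1 c DESeq2 still called Bhlhe41 (adjusted p = 0.0477), but not Cebpe (adjusted p = 0.102) or Mafg, whose log2 fold change went from -1.59 to -0.40 in edgeR. The median log2 fold change of the 17 was -0.45, and 0.16 without day 1 c, against -0.17 and -0.14 over all genes tested.

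Bhlhe41, the closest relative of Bhlhe40, was at 2.39, 2.24 and 2.39 CPM in the day 1 libraries a, b and c and at 11.4, 4.78, 7.00, 6.19 and 8.10 in day 3 a to e. All 5 day 3 libraries lay above all 3 of day 1, as in 5.31% of all genes. The log2 fold change came to 1.68 ± 0.59 (edgeR, adjusted p = 0.190, and DESeq2, adjusted p = 0.00988). The mean of Bhlhe41 over all libraries, 0.828 CPM per kilobase, lies within the range of the day 1 background given with the processing. Cebpe, the C/EBP gene of late granulocyte maturation, was at 14.8, 14.3 and 12.1 CPM in the day 1 libraries a, b and c and at 1.67, 6.79, 4.76, 2.51 and 6.33 in day 3 a to e. All 5 day 3 libraries lay below day 1, as in 8.76% of all genes, and the log2 fold change came to -1.64 ± 0.56 (edgeR, adjusted p = 0.181, and DESeq2, adjusted p = 0.0494).

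Mafg, a small MAF partner, was at 137 CPM in day 1 c and at 16.5 to 34.1 in the other libraries. Maff, another small MAF, was at 103 CPM there and 9.56 to 31.5 elsewhere. The MiT gene Tfe3 was at 97.4 CPM in day 1 c and 16.1 to 30.3 elsewhere, and Runx3 at 27.2 and 1.66 to 19.3. In each of these 4 genes day 1 c was the highest library, and their GC contents of 54.9% to 57.6% were above the median of 48.5%. Ddit3, which encodes the C/EBP dimer partner CHOP, went the other way at a GC content of 55.4%, with 32.3 CPM in day 1 c and 55.3 to 109 elsewhere. Cbfb, at a GC content of 42.5%, was also highest in day 1 c, at 84.0 CPM against 25.8 to 56.1 elsewhere. Mafk (56.2%) was highest there too, at 66.0 CPM, while Cebpe (61.5%) was lower in day 1 c than in day 1 a and b. Spic, the PU.1 relative of iron-recycling macrophages, was lowest in day 1 c at 6.21 CPM and highest in day 3 a at 104. Cebpg, Cbfb, Mafk and Tfec, with means over all libraries of 123, 46.1, 41.9 and 41.9 CPM, had overlapping day ranges. Spib, the B-lineage relative of Spi1, had no count in any library.

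**Figure D5:**
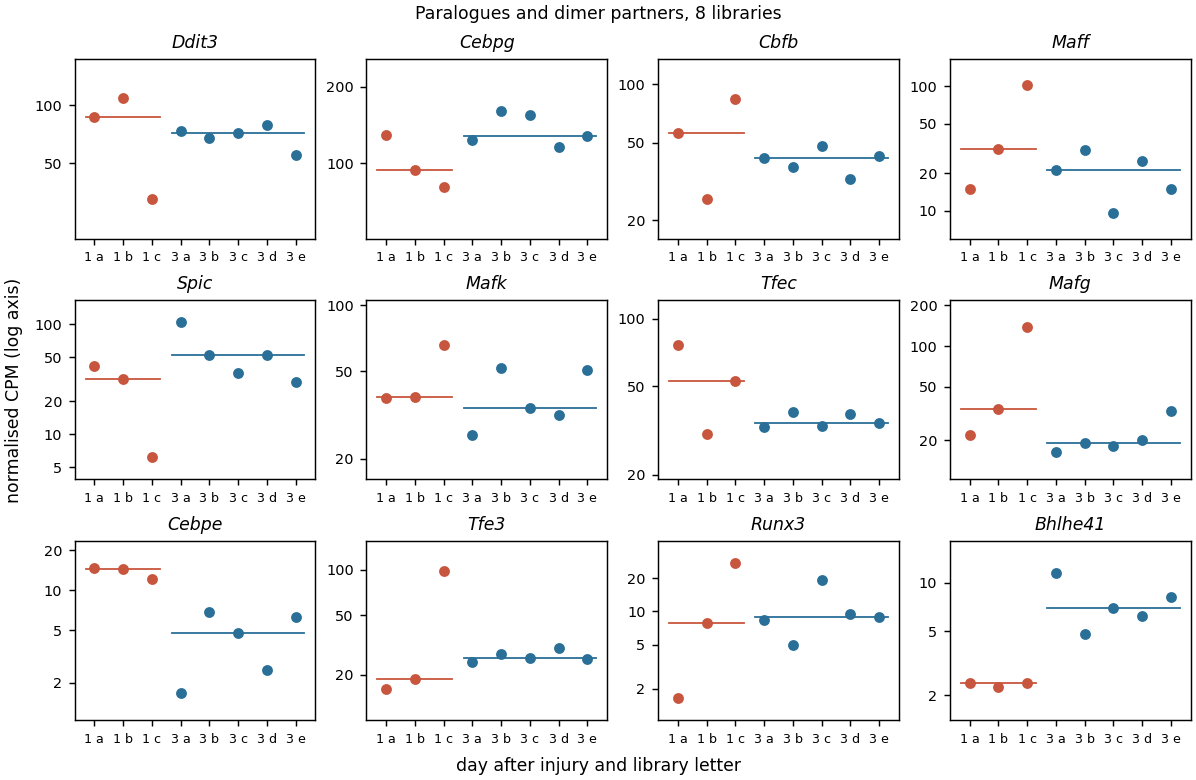
Normalised CPM (log axis) in each library of 12 paralogues and dimer partners with a mean of at least 5 CPM, day 1 in red and day 3 in blue, with a line at the median of each day. Bhlhe41 and Cebpe have day ranges that do not overlap. Maff, Mafg, Mafk, Tfe3, Runx3 and Cbfb have their highest point in day 1 c.

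Genes known as targets of the members were also counted, to be read against the shares over all genes tested. Those shares were 15.7% at an unadjusted edgeR p under 0.05, 6.77% called by DESeq2 and 5.37% by limma voom. DESeq2 without day 1 c called 7.01%. Of 24 PU.1 targets none passed with edgeR, 4 above and 4 below 0 had an unadjusted p under 0.05, and DESeq2 called 2 higher, Lyz2 and the Fc receptor gene Fcgr3, and 2 lower, the Fc receptor gene Fcgr1 and Tlr4, the endotoxin receptor. With limma voom 2 were higher and 1 lower. Without day 1 c DESeq2 did not call Tlr4 (adjusted p = 0.0629). In the same fit it newly called Ctss (adjusted p = 0.00224) and Cybb (adjusted p = 0.0471) higher. The list's median log2 fold change was -0.004, and 0.09 without day 1 c, against -0.17 and -0.14 over all genes. The 2 highest per exon length were Lyz2, lysozyme, at 8167 ± 1609 CPM at day 1 and 19781 ± 2908 at day 3 (log2 fold change 1.28 ± 0.20, edgeR, adjusted p = 0.0603), and Ctss, a lysosomal protease, at 7421 ± 2850 and 12441 ± 705 CPM.

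Of 20 C/EBP targets 18 were tested and 1 passed with edgeR, lower at day 3. That gene was Chil3, the chitinase-like lectin of inflammatory monocytes, at 1063 ± 543 CPM at day 1 and 148 ± 23.0 at day 3 (log2 fold change -2.85 ± 0.30, edgeR, adjusted p = 0.0267). All 8 fits that left out 1 library gave a Chil3 log2 fold change between -3.15 and -2.39, but the call held in 2 of them, without day 1 b and without day 3 b. It was lost without day 1 a or c or day 3 a, c, d or e (edgeR, adjusted p from 0.0515 to 0.141). Chil3 is also 1 of the 9 inflammatory monocyte markers, whose sum was 8881 to 10625 CPM at day 1 and 4421 to 8459 at day 3, and the part of those cells in its difference was not tested. Lyz2, which is also on this list, and the neutrophil chemokine gene Cxcl2 had the highest levels per exon length. Cxcl2 was at 4366 ± 2705 CPM at day 1, with 7422 in day 1 c, and 2223 ± 1256 at day 3. The list's median log2 fold change was -0.58, and -0.03 without day 1 c. DESeq2 called Lyz2 higher and Chil3 and Arg1, the arginase of repair macrophages, lower, and without day 1 c it did not call Arg1 (adjusted p = 0.116).

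None of 16 genes known as targets of MAF factors passed with edgeR, and 3 above and 2 below 0 had an unadjusted p under 0.05. DESeq2 called Selenop, a secreted selenium carrier, higher and Cd163, the haemoglobin scavenger receptor, lower, and limma voom called 1 higher. Cd163 was at 167, 92.4 and 373 CPM in the day 1 libraries a, b and c and at 57.8 to 117 at day 3. The ranges overlapped, the difference missed the threshold with edgeR (adjusted p = 0.145) and limma voom (adjusted p = 0.177), and without day 1 c the log2 fold change went from -1.25 to -0.55 (edgeR, adjusted p = 0.416; DESeq2, adjusted p = 0.332). Selenop was at 1573 ± 495 CPM at day 1 and 3716 ± 519 at day 3 (edgeR, adjusted p = 0.0746). C1qb was at 2397 ± 310 and 3258 ± 369 CPM (edgeR, adjusted p = 0.214). All day 3 libraries lay above day 1 in both, as in 5.31% of all genes. Without day 1 c DESeq2 called C1qa, C1qb and C1qc higher (adjusted p = 0.0145, 0.0110 and 0.00861), which it did not with all 8 libraries. The list's median log2 fold change was 0.02, and 0.25 without day 1 c.

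Of 22 targets of MITF and its relatives 20 were tested and none passed with edgeR, with 3 above and 3 below 0 at an unadjusted p under 0.05 and a median log2 fold change of -0.07. The cathepsins Ctsb, at 15831 ± 2937 CPM at day 1 and 17908 ± 1199 at day 3, and Ctsd, at 1250 ± 559 and 904 ± 147, were highest per exon length, and their day ranges overlapped. Of 19 circadian clock genes, the pathway in which BHLHE40 represses E-box promoters, 16 were tested and none passed with edgeR, DESeq2 or limma voom, while 2, both below 0, had an unadjusted edgeR p under 0.05. Their median log2 fold change was -0.43, with 5 of 16 above 0, and the 2 highest were Csnk1d, a kinase of the clock, and Ciart.

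Among 40 other transcription factors of monocytes and macrophages 36 were tested, and none passed with edgeR. An unadjusted edgeR p under 0.05 was reached by 11, 4 above and 7 below 0, against 15.7% of all genes. Their median log2 fold change was -0.31, and -0.10 without day 1 c, against -0.17 and -0.14 over all genes tested. DESeq2 called 3 higher, Klf4, Mef2c and Atf3, and 5 lower, Irf5, Stat3, Stat6, Hif1a and Mef2d, while limma voom called 2 higher and 3 lower. Over all genes the shares called were 6.77% with DESeq2 and 5.37% with limma voom. Irf5 and Stat6 were highest in day 1 c, at 283 and 174 CPM, and without it their log2 fold changes went from -1.56 to -0.83 and from -1.56 to -0.70 (edgeR). DESeq2 then called neither (adjusted p = 0.0795 and 0.320), nor Mef2d (adjusted p = 0.127). It did call Klf2, Id3 and Rxra higher (adjusted p = 5.85e-05, 0.0204 and 0.0456). With all 8 libraries DESeq2 did not call Id3 or Rxra, and it gave Klf2 no adjusted p. Klf2, at 1037 CPM in day 1 c, went from -1.64 to 1.30 in log2 fold change (edgeR). The 2 highest per exon length were Id2, an inhibitor of helix-loop-helix factors, at 1004 ± 232 CPM at day 1 and 919 ± 193 at day 3, and Atf3, a stress-induced leucine zipper repressor, at 585 ± 115 and 928 ± 189. Atf3 was higher in all day 3 libraries than in any of day 1, as in 5.31% of all genes. Its log2 fold change came to 0.67 ± 0.21 (edgeR, adjusted p = 0.157).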

How the data were processed

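RNA of 8 pools of bead-selected wound macrophages was sequenced, and the authors deposited a raw count per gene. The counter was featureCounts 1.6.0 on Ensembl release 106 (GRCm39), per the file headers, run with no option for strand, read pairs or reads of several positions. Which aligner was used is not given in the sources. Even numbers made up 81.3% to 86.0% of the counts of 2 to 20, and 73.0% in day 1 c. A count may therefore hold both reads of a pair. Genes were matched to symbols for 52081 of 55414 IDs (94.0%).

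Genes were kept with filterByExpr (minimum count 10), scaled with TMM and tested in R 4.3.3 with the edgeR 4.0.16 quasi-likelihood test, two-sided, over all genes tested. DESeq2 1.42.0 and limma 3.58.1 (voom) were run as alternatives, beside other scalings and filters, halved counts, each library left out and the letters as blocks. A smooth of the log2 level on transcript GC, fitted per library as an offset, was added after the Cebpb counts had been seen, and DESeq2 without day 1 c later still. Levels are normalised CPM, in which 3 counts are 0.0501 to 0.0755 CPM for counting error only. Background was read from 1752 chemosensory receptor genes. Their 99th percentile was 0.383 to 1.51 CPM per kilobase at day 1, 0.369 in day 3 a and 0.00745 to 0.0875 in day 3 b to e. Values are means ± SD and fold changes log2, day 3 minus day 1, ± SE. The fits were tested on simulated data.

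The members and lists were chosen with earlier results of these data known. Named are all members, the called genes (up to 3) and the 2 genes highest in CPM per kilobase of each list, relatives of at least 5 CPM on average, overlapping genes, and the 2 genes of at least 10 CPM most correlated with each member. Genes named only as called by DESeq2 or at an unadjusted p, and Spib, were picked with their values in view. Some items that these rules name are not reported here. Coordinates and GC content of the printed sequences are those of GENCODE M21 on GRCm38.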

Additional observations from a re-analysis of the deposited data

Results flagged for a closer look

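Of 51 sets of 5 day 3 values checked, 12 had a library far from the other 4 by Dixon's ratio of gap to range, and chance flags about 1 in 20 groups. Among the members only Cebpd did, with 11.0 CPM in day 3 c (ratio 0.770) against 17.5 to 19.5 in the others. Mafg was high in day 3 e at 32.9 CPM (ratio 0.773). Chil3 was high in day 3 a at 188 CPM (ratio 0.794) and Selenop low in day 3 b at 2806 CPM (ratio 0.793). Tmem189, which overlaps Cebpb, was high in day 3 a at 50.9 CPM (ratio 0.766), and Zeb2os, which overlaps Zeb2, was low in day 3 c at 3.01 CPM (ratio 0.723).

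The other 6 were marker sums, and 4 of them were high in day 3 b. In that library inflammatory monocyte markers summed to 8459 CPM (ratio 0.855), neutrophil markers to 5693 (ratio 0.923), dendritic cell markers to 159 (ratio 0.851) and keratinocyte markers to 59.7 (ratio 0.956). T and NK cell markers were high in day 3 e at 13.7 CPM (ratio 0.727) and basophil markers in day 3 a at 2.13 CPM (ratio 0.731).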

How the results depend on the processing

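Having 0 members called held under 18 of 21 alternatives. It became 1 member with DESeq2 and without day 1 c (Cebpa, 1.21), a fit in which 1190 genes were called, Mitf was -0.055, Bhlhe40 -0.054 and Cebpd 0.24. It also became 1 member, Cebpb, with a threshold of 0.1 (log2 fold change -4.20) and without a filter on low counts (-4.19), where the estimated prior degrees of freedom were infinite and a gene's own spread was not used. Leaving out each library in turn gave 0 members called every time. The count of genes called, 2 over all genes, was 1041 with DESeq2, 825 with limma voom, 1347 without a filter, 146 with the stricter filter, 46 with halved counts, 735 at a threshold of 0.1, and 0 to 59 with 1 library left out (59 without day 1 b, 31 without day 3 b, 1 without day 1 c). The median log2 fold change of all genes was -1.40 without a filter.

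The direction of Spi1, Cebpa, Cebpb and Zeb2 held under all 21 alternatives. With 1 library left out, Spi1 ran from -0.88 to -0.26, Cebpa from 0.48 to 1.21, Cebpb from -4.81 to -0.06 and Zeb2 from 0.11 to 0.42. The members near 0 changed sign. With 1 library left out, Maf ran from -0.25 to 0.61, Runx1 from -0.26 to 0.12, Cebpd from -0.63 to 0.23, Mitf from -0.041 to 0.37 and Bhlhe40 from -0.16 to 0.23. Bhlhe40 was -0.027 with limma voom. With the GC offset Mitf was -0.024, and with that offset and without day 1 c Mitf was -0.11, Cebpd 0.24 and Bhlhe40 -0.061. The cause of these changes of sign was not tested.

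Same-lettered libraries of the 2 days did not deviate together (r of 0.10, 0.02 and -0.14 for a, b and c), so the letters were taken as names. The alignments listed in the recorded counting command carry partly other letters than the columns, so a letter may not name the same pool in both. With letters a to c alone 0 genes were called without a block and 0 with the replicate block. The replicate block gave Cebpb -1.51, Cebpa 0.90 and Bhlhe40 -0.064, and the same 6 libraries without a block gave Bhlhe40 -0.0091.

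The lowest count of any member in any library was 340, for Cebpd in day 1 a. One library of day 1 carried the Cebpb value.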
